A study of Mus musculus with 1 sample.

Results

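The AP-1 and EGR transcription factors were examined in 1 control RNA-seq library of mouse ventral midbrain (VM)-derived mixed glia. The members were 10 genes chosen by symbol, namely 4 of the FOS family (Fos, Fosb, Fosl1, Fosl2), 3 of the JUN family (Jun, Junb, Jund) and 3 of the EGR family (Egr1, Egr2, Egr3), out of 23282 rows in the table. Each had 1 row. The glia were taken at postnatal day 5 from outbred ICR(CD-1) mice and grown in medium with fetal bovine serum, and the labels name no engineered allele. The study asked what an inhibitor of the kinase SGK1 does to such glia, and its RNA-seq control received the vehicle DMSO. The treatment description mentions toxins without saying whether the control culture was given any, and the number of pups behind the culture was not stated. Inhibitor-treated glia were not analysed here. With 1 library there was no contrast between groups, no replicate and no test, so every value below describes this culture alone.

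AP-1 is a dimer of basic leucine zipper (bZIP) proteins. JUN proteins can pair with each other or with FOS proteins, whereas FOS proteins need a partner such as JUN to bind DNA stably. EGR proteins bind GC-rich DNA through zinc fingers. Most genes of these families are immediate early genes, which serum, growth factors, stress or, in neurons, synaptic activity switch on within minutes without new protein synthesis, and the messages are short-lived. Glia, too, induce them after a stimulus.

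Each gene had a whole-number value of the kind the study calls a normalised read count. The values summed to 27569507. A longer transcript gives more reads, so genes were compared by level, meaning the value per kilobase of annotated exon and per 1000000 of that sum. Detection was set at a minimum value of 10, and the median level of the 15479 detected genes with a known length was 3.72. Markers of several glial and mesenchymal cell types were present. All 7 astrocyte, all 7 microglia and all 6 mesenchymal markers examined were above that median, with median levels of 20.3, 86.2 and 22.2. The highest in each were Gfap at 148, C1qa at 1138 and Acta2 at 438. None of 7 neuron markers (median level 0.0617) and none of 5 endothelial markers (0.192) was, and Slc17a6 and Tek among them were listed at 0. The oligodendrocyte lineage (3 of 6 above) and ependymal (3 of 4 above) markers were mixed. In such a bulk library a gene that is low in every cell and one that is high in few cells cannot be told apart, so no level below was assigned to a cell type.

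All 10 members were detected, against 67.2% of all rows. The JUN genes led, Egr1, Fos and Fosl1 followed, and Fosl2, Egr2, Egr3 and Fosb were lowest. The highest level, that of Jund, was 25.0 times the lowest, that of Fosb. Of the 10 members, 7 were above the median of detected genes, a mark that 33.8% of all rows with a known length and 50% of detected genes reached. Above the 75th percentile of detected genes were 6 members (16.9% of all rows) and above the 90th percentile 3 members (6.77% of all rows). Detected genes are the nearer comparison, as all 10 members were detected, and their shares above these percentiles are larger by definition. The 10 values together made up 0.0770% of the sum.

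**Figure D1:**
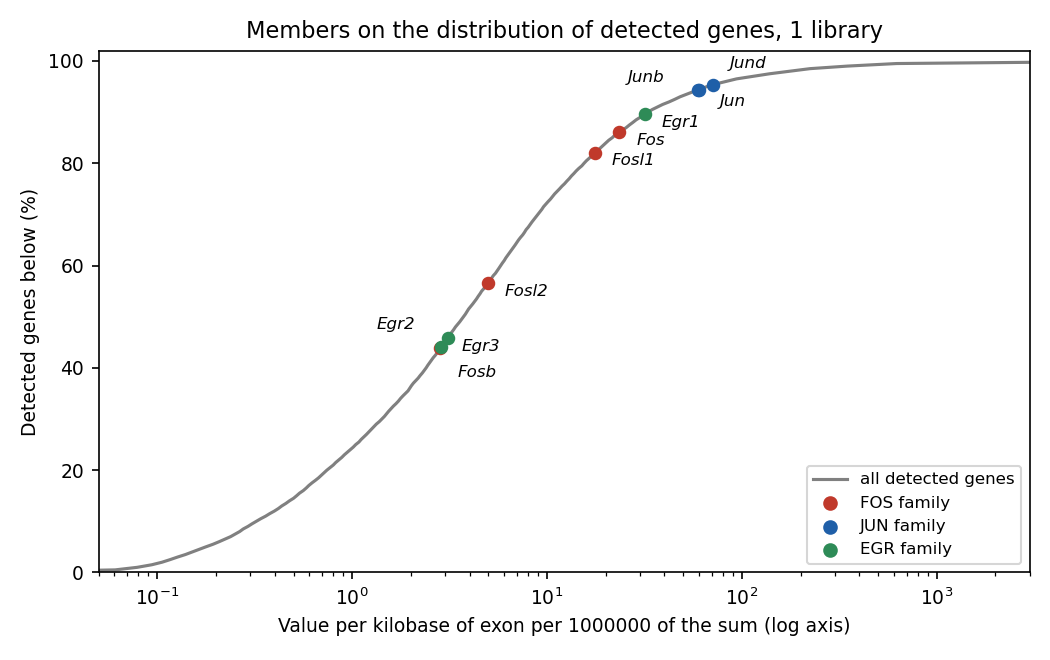
Cumulative distribution of levels (value per kilobase of exon per 1000000 of the sum, log axis) over all detected genes of the library, with the 10 members as points coloured by family. The JUN genes lie above 94.4% to 95.3% of detected genes, and Egr2, Egr3 and Fosb lie under the median.

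The order of the levels was read with a margin. Levels within 1.5 times of each other were not set in order, a margin fixed in place of the missing replicate error. Jund, Jun and Junb were within that margin, at 1.18 and 1.01 times their next neighbour. Without division by length Jund was 0.616 times Jun, outside the margin. Junb was 1.88 times Egr1, but without division by length it was 0.967 times Egr1. Egr1, Fos and Fosl1 followed at steps of 1.35 and 1.33, which were within the margin. Fosl1 was 3.56 times Fosl2, a step that turned to 0.893 times with coding length and to 0.748 times without division by length. Fosl2 was 1.61 times Egr2. Egr2, Egr3 and Fosb lay within 1.08 and 1.01 times of each other and were not distinguished.

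The JUN family was the most even. Jun, the founding member and the one most directly activated by the JNK kinases, had a value of 5289 and a level of 60.2 (chromosome 4, 95049034 to 95052222 in GRCm38, minus strand). Junb, which often restrains Jun in cell growth, had a value of 3787 and a level of 59.7 (chromosome 8, 84974484 to 84978718, minus strand). Jund, known for steady expression in many resting cells, had the smallest value of the family, 3256, but the highest level, 70.8 (chromosome 8, 70698949 to 70700616, plus strand). By GENCODE lengths the change of place came from length, as Jund has 1668 exon bases and Jun 3189. The RefSeq start of Jund lies 1210 bases upstream of the GENCODE one, so the counted Jund exons may be longer than 1668 bases. Its level would then be lower, which was not tested. The highest JUN level was 1.19 times the lowest, and the genes held 31.6% (Jun), 31.3% (Junb) and 37.1% (Jund) of the family's summed level. Relative to the median of detected genes they stood 16.2-fold (Jun), 16.0-fold (Junb) and 19.0-fold (Jund) higher. With coding length the folds were 15.6 (Jun), 10.9 (Junb) and 9.42 (Jund). Without division by length they were 11.3 (Jun), 8.07 (Junb) and 6.94 (Jund). The place of Jund as the highest of the family thus depended on the length used.

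The FOS family was uneven. Fos, the prototype immediate early gene, had a value of 1525 and a level of 23.5 (chromosome 12, 85473890 to 85477273, plus strand). Fosl1, which encodes FRA1 and is often induced later than Fos, had a value of 992 and a level of 17.7 (chromosome 19, 5447547 to 5455946, plus strand). Fosl2, which encodes FRA2, had a higher value than Fosl1, 1326, but a level of 4.97, because its annotated exons cover 9680 bases (chromosome 5, 32135801 to 32157842, plus strand). Fosb, whose short splice form ΔFosB is known for its stability in neurons, had a value of 488 and a level of 2.84 (chromosome 7, 19302696 to 19310051, minus strand). Its splice forms share 1 value here and were not separated. Fos held 48.0% of the family's summed level, Fosl1 36.1%, Fosl2 10.1% and Fosb 5.78%, and the highest level was 8.29 times the lowest.

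The EGR family rested on 1 gene. Egr1, also known as Zif268 and the most widely induced of the family, had a value of 3917 and a level of 31.7 (chromosome 18, plus strand). Egr2, best known for driving myelination in Schwann cells and hindbrain segmentation, had a value of 289 and a level of 3.08 (chromosome 10, 67535475 to 67542188, plus strand). Egr3, needed for muscle spindles and active in neurons and lymphocytes, had a value of 347 and a level of 2.86 (chromosome 14, 70077203 to 70082614, plus strand). Egr1 held 84.2% of the family's summed level, Egr2 8.20% and Egr3 7.59%. Egr1 stood 8.52-fold above the median of detected genes, whereas Egr2 (0.829-fold) and Egr3 (0.768-fold) were under it. Their side depended on the detection minimum, since with a minimum of 1 in place of 10 the same median was lower and Egr2 stood at 1.18-fold, Egr3 at 1.09-fold and Fosb at 1.08-fold. The remaining family member, Egr4, which was not among the chosen genes, had a value of 43 and a level of 0.726.

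Summed by family, the level was 190.7 for JUN, 49.0 for FOS and 37.6 for EGR. The JUN sum was thus 3.89 times the FOS sum. The EGR sum was 0.768 times the FOS sum, but 1.05 times without division by length. Leaving out 1 gene at a time, the JUN sum stayed above the FOS sum, with the ratio running from 2.44 without Jund to 7.48 without Fos, and it was 6.09 without Fosl1. The ratio compares messages and not proteins, and no replicate gives its error.

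**Figure D2:**
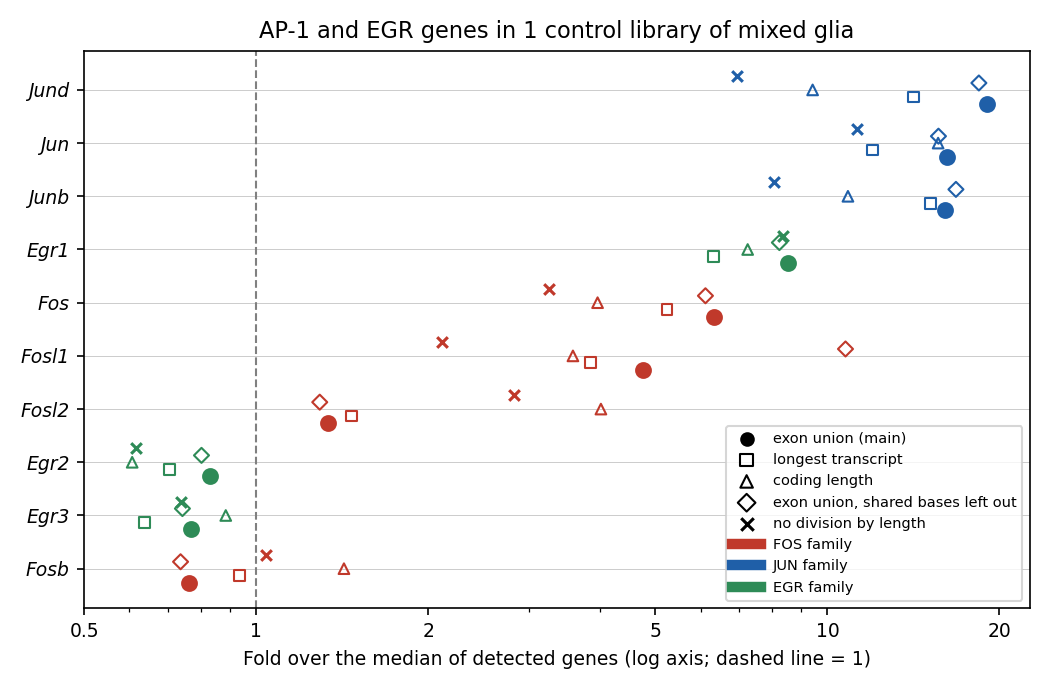
Each member's level as a fold over the median of detected genes (log axis), coloured by family, under 5 ways of treating gene length. The filled circle is the exon union used in the text and the open or crossed symbols are the alternatives. Jun, Junb and Jund stay above 6.9-fold and Egr2 and Egr3 stay under 1 in each, while Fosb crosses 1 and Fosl1 moves most when shared bases are left out.

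Several members share exon bases with a gene on the opposite strand, and the strand setting of the counting was not stated. Fosl1 overlaps Ccdc85b (value 1899) over 1163 of its 2033 exon bases. Jund overlaps the antisense gene Gm11175 over 877 of 1668 bases, Jun overlaps Junos over 232 bases, and Junb overlaps Prdx2 (value 7024) over 173 bases. Gm11175 and Junos had no row. If only the bases that Fosl1 shares with no other gene of the table were its length, its level would be 1.76 times that of Fos rather than 0.753 times, so the places of Fos and Fosl1 depend on this choice. Sequence shared between members, through which reads could be confused, was looked up in the annotation, and no reads were examined. Of all 50-base words in the annotated transcripts, 0 were shared between members, and 6 of the 10 genes shared none with any other gene. The 4 that did shared them with the opposite-strand gene named above, at 52.6% of words for Fosl1, 48.3% for Jund, 5.83% for Jun and 5.76% for Junb.

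Gene structure divided the members exactly by family. In the transcript with the longest coding sequence, the 4 FOS genes each had 4 exons, the 3 EGR genes each had 2 and the 3 JUN genes each had 1. Among 21951 protein-coding genes of the annotation the median was 7 exons, with 4 in 8.62%, 2 in 9.64% and 1 in 7.08%. The pentamer AUUUA, written ATTTA in the annotation's DNA letters, is the core of the AU-rich elements through which proteins such as ZFP36 hasten the decay of messages. It occurred in the longest 3′ UTR of all 10 members, against 65.2% of 21028 genes with an annotated 3′ UTR. Its density was above the median of all genes, 1.24 per kilobase, in 9 of 10. Fos had 4 copies and the highest density, 4.91 per kilobase, above 92.2% of genes. Junb followed with 4.12 and Jun with 3.24 per kilobase. Fosb was lowest, with 1 copy or 0.434 per kilobase. A match is only a description of the sequence, and decay was not measured.

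The promoters of 5 members are shown because they hold letters related to the cyclic AMP response element (CRE), through which immediate early genes are classically switched on. Other motifs in them, namely the CArG box bound by serum response factor, the TATA box and the EGR site, are marked as well. RefSeq start sites on GRCm38.p6 were available for 7 of the 10 members (Fos, Fosb, Fosl2, Jun, Junb, Jund and Egr2). Each line gives the 150 bases before the start, 5′ to 3′ on the gene's strand, at chr12:85473740-85473889 for Fos (plus strand), chr7:19310046-19310195 for Fosb (minus), chr4:95052223-95052372 for Jun (minus), chr8:84978749-84978898 for Junb (minus) and chr10:67537719-67537868 for the third of 5 Egr2 starts (plus). Capitals mark TGACG on either strand (Fos, Fosb, Junb and Egr2), TATAAA (Fos), GCGNGGGCG (Fosb), TGACATCA (Jun) and the CArG box (Egr2).
Fos: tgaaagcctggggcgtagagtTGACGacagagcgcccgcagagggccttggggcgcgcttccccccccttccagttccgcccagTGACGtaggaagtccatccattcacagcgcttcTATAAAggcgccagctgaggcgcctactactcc
Fosb: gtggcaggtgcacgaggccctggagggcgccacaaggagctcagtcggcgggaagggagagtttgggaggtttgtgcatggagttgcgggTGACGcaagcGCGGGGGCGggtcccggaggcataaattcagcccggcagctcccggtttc
Jun: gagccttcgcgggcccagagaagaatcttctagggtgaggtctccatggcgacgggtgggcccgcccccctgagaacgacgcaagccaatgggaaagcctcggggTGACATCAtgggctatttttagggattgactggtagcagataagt
Junb: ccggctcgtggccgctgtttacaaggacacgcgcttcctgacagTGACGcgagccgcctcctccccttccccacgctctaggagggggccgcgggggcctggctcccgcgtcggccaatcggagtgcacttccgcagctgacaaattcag
Egr2: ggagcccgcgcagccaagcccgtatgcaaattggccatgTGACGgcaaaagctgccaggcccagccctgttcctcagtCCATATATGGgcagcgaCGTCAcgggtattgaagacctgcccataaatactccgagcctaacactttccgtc

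Motifs were searched on both strands of the window from 250 bases before to 50 bases after the start. The G and C content was 46.7% in the Jund window and 56.0% to 72.0% in the members' other windows. Its median over all windows was 52.7%. The shares of all windows given below were not matched for this content. TGACG, the leading part of the CRE, was present in 6 of the members' 11 windows, from 4 of the 7 genes, against 20.8% of 32851 windows of all genes. Egr2 alone has 5 windows, 3 of which overlap and hold the same match. It lay at −129 and −66 in Fos, −60 in Fosb and −106 in Junb, and in the shown Egr2 window at −111 and, on the opposite strand, at −55. Jun carried the CRE-like TGACATCA at −45, a sequence in 3.62% of windows. TGACG and TGACATCA were added to the search after the sequences had been read, so their counts are a description of what was seen. The CArG box was found in 4 of the 5 Egr2 windows, at −72 in the one shown, and in 1.63% of all windows. Of these 4 windows, 3 are the overlapping ones and hold the same CArG box, so they are not separate matches. The shown Egr2 start is 2394 bases downstream of the GENCODE start, and the Egr2 window nearest to the GENCODE start held neither TGACG nor a CArG box. TATAAA lay at −33 in Fos and at 1 in Junb, where the GENCODE start is 30 bases further downstream, and in 13.6% of all windows. The EGR site GCGNGGGCG was present at −50 in Fosb and −79 in Fosl2, and in 5.55% of windows. The full CRE TGACGTCA (1.79% of windows) and the AP-1 site TGANTCA (7.81%) were in none of the members' windows. TGACG is contained in TGACGTCA, so these searches overlap. The RefSeq start of Fosl2 is 671 bases downstream of the GENCODE one. That of Jund is 1210 bases upstream, and its window held none of these letters. A missing match concerns this window only.

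The wider pathway was described with lists of genes, each read against the 33.8% of all rows and the 50% of detected genes that lie above the detected median. Upstream, 10 of 12 MAP kinases and related kinases were above it (median level 11.9). Mapk3, which encodes ERK1, had a level of 82.3, and its activators Map2k2 and Map2k1 had 31.3 and 29.7. The lowest was Mapk8, which encodes the JUN kinase JNK1, at 0.960. The other JNK genes, Mapk9 (JNK2) and Mapk10 (JNK3), had levels of 5.93 and 2.97, so Mapk9 was above the median. Of 9 factors that act on immediate early promoters, whether to activate or to repress them, 5 were above the median (median level 4.05). Srf, which encodes serum response factor, had a level of 18.2, its partner Elk3 13.5 and the CREB relative Atf1 12.6, with Elk4 lowest at 1.22.

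Among 15 other bZIP genes whose proteins pair with FOS or JUN or belong to related groups, 14 were detected and 11 were above the median (median level 12.3). The stress response factor Atf4 had a level of 113, above each of the 10 members. The stress-induced Atf3 had 56.5, close to Junb. Batf2 was lowest, with a value of 3.

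Of 13 negative regulators, 9 were above the median (median level 9.14). Nab2, a corepressor that binds EGR1 and is itself an EGR target, had a level of 62.5, which was 1.97 times that of Egr1. A small part of its exons overlaps Stat6 on the opposite strand. Zfp36l2, an RNA-decay factor, had 33.5 and the second corepressor Nab1 21.7. Dusp2, a MAP kinase phosphatase, was lowest at 0.634.

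Of 18 other immediate early genes, 14 were above the median, and the median level was 12.8. The highest was Ccn1, a matricellular gene listed under its older name Cyr61, at 184. The survival gene Mcl1 had 70.2 and Atf3 56.5 as above, and Egr4 was lowest. The orphan receptors Nr4a1, Nr4a3 and Nr4a2 had levels of 9.88, 3.50 and 0.885. The neuronal activity list (7 genes, median level 1.08) was read against the same 33.8% of all rows and 50% of detected genes. Above the median were 2 of the 7, namely Rgs2 at 26.6 and Arc, a synaptic immediate early gene, at 11.3. The third highest, Bdnf, was at 1.75, and Npas4, a factor induced by calcium in neurons, was at 0.833. Egr4 is in both lists and was the lowest here too, at 0.726.

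Target genes were listed from textbook knowledge, and the list sizes were small. Of 13 AP-1 target genes, 10 were above the median (median level 34.6). Spp1 had a level of 7146, Vim 1673 and the heme-degrading enzyme Hmox1 200.1. The protease genes Mmp13 (0.475) and Mmp9 (1.13) and the cytokine Il6 (0.508) were the members of the list under the median. All 10 EGR target genes were above it (median level 32.2), with the matrix gene Fn1 at 297, Nab2 as above and Cd44 at 34.6. Cd44 is in both target lists. These genes have many other regulators, and whether AP-1 or EGR proteins set their levels here was not tested.

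**Figure D3:**
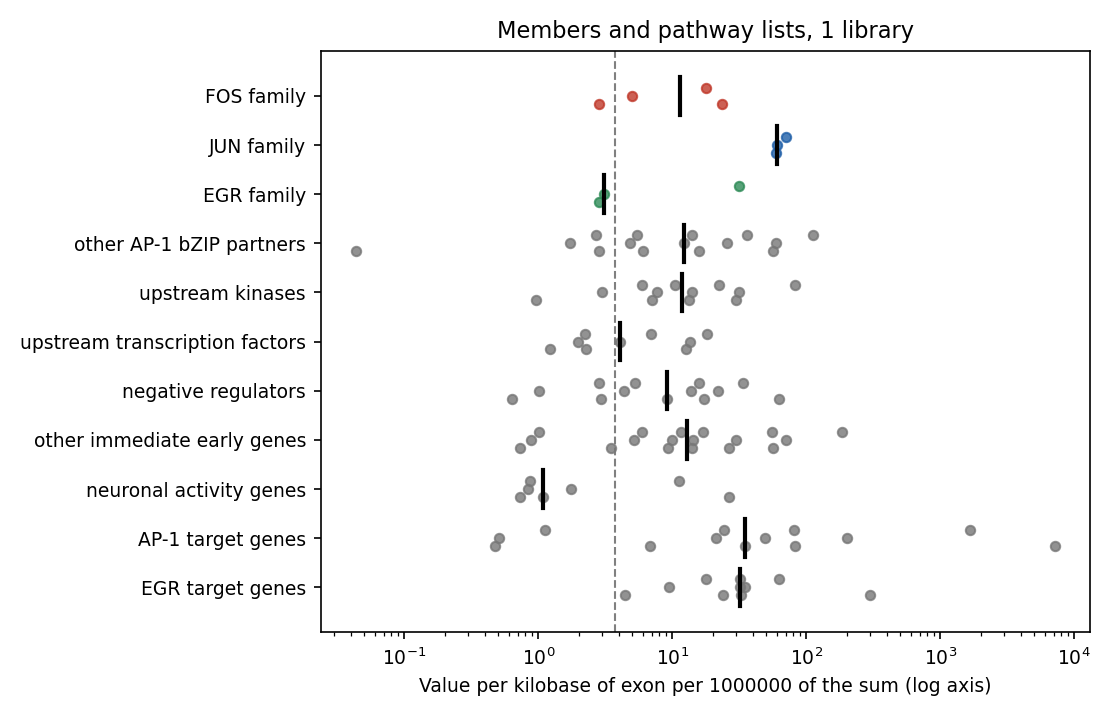
Levels (value per kilobase of exon per 1000000 of the sum, log axis) of the 10 members by family and of the genes of 8 pathway lists, 1 point a gene, with the list median as a black bar and the median of detected genes, 3.72, as a dashed line. The JUN family points sit close together at 59.7 to 70.8, and the neuronal activity list is the only pathway list whose median lies under the dashed line.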

How the data were processed

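The deposited file held 1 whole number per gene symbol, which the authors described as a normalised read count. This deposited score was made by the authors through trimming, mapping and counting of reads and was not entered into any model for raw counts. Per the study's methods, reads were quality-trimmed at 20, STAR placed them on GRCm38/mm10, and HTSeq-count tallied them over RefSeq exons. The methods also state that FPKM was calculated, but the values used here are whole numbers and were taken as read counts not yet divided by length. The submitters' processing notes instead name TopHat and edgeR, so the aligner is uncertain. The normalisation, strand setting, treatment of multi-mapped reads and number of sequenced reads are not given in the sources used here, so no counting interval is printed. Exon lengths (union of annotated exons), positions and overlaps came from GENCODE release M21 on GRCm38, matched by symbol or older symbol for 22881 of 23282 rows (98.3%). The exons counted by the study were those of RefSeq, so a length used here can differ from the length counted. RefSeq lengths were not tried. Promoter windows came from RefSeq on GRCm38.p6. Protein sequences were not analysed here. The members, lists and motifs were chosen with earlier results of these data known. Named genes were all members and, in each list, the 3 highest genes, the lowest and any listed at 0, except that of the marker lists only the highest glial and mesenchymal genes and those at 0 are printed. Some genes that this rule selects are left out of the text. Nr4a genes, Npas4, Mmp9, Il6, Mapk9 and Mapk10 were named after their values were seen. No test was run. The calculation of levels was tested on simulated data. Python 3.11.15, numpy 2.4.6, pandas 2.3.3 and matplotlib 3.10.9 were used.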

Additional observations from a re-analysis of the deposited data

How the results depend on the processing

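Levels, shares, order, counts and family sums were recomputed with other gene lengths, minima, scales and members left out. A value counted as unmoved within 1.5 times, and 204 of 230 values were. The 10 levels rescaled without Rn45s and the 10 without the 10 highest genes changed by fixed factors of 1.02 and 1.15. They could not count as moved. A count of members above the median that went from 7 to 10 also counted as unmoved, so the tally is not a measure of stability. The JUN sum stayed above the FOS sum throughout, at 2.69 to 3.89 times over the length choices. On the log2 scale the ratio was 1.96, and it moved to 1.29 without Jund, 2.90 without Fos and 2.61 without Fosl1. With the longest annotated transcript as length, 6 members changed place and 1 neuron marker (none before) was above the detected median.

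With coding length, 8 members changed place, the fold over the detected median was 3.96 for Fos, 1.42 for Fosb, 4.01 for Fosl2 and 9.42 for Jund, and the family share was 30.5% for Fos, 11.0% for Fosb and 30.9% for Fosl2. Without division by length, 7 members changed place, and 1 neuron marker was above the median. The fold was then 3.25 for Fos, 2.12 for Fosl1, 2.83 for Fosl2, 8.07 for Junb and 6.94 for Jund, and the share 11.3% for Fosb, 22.9% for Fosl1 and 30.6% for Fosl2. These shifts follow from the lengths themselves. With exon bases shared with another gene of the table left out, an alternative added after the data were seen, 5 members changed place and Fosl1 stood at 10.8-fold with 56.9% of its family. Members above the detected median numbered 10 at a minimum of 1, 8 at 3 and 6 at 100. Leaving out the 10 highest genes raised every level 1.15-fold. The lack of a replicate limits all of these values to this library.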
